A study of Mus musculus with 12 samples.

Results

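A set of 40 lysosomal messages was followed in bulk RNA of primary white adipocyte cultures given a let-7 microRNA mimic or a negative control. The set holds 22 lysosomal enzymes (7 proteases, 12 enzymes that take apart glycans and their sulfates, and 3 that act on lipids or lipid anchors), 11 genes of the proton pump, the enzyme helpers Psap and Grn, 4 membrane proteins and the transcription factor Tfeb. All 40 were found by symbol among the 15754 genes of the count table. The cells were grown from the stromal vascular fraction of epididymal fat of wild-type male C57BL/6 mice, 8 weeks old and fed chow. All cultures, controls included, received rosiglitazone (1 µM), insulin (850 nM), dexamethasone (1 µM) and IBMX (250 µM) as inducers of fat cell formation. On day 4 after induction they were transfected with a let-7d-5p mimic, a let-7e-5p mimic or a negative control, 4 libraries each, and on day 7 they were harvested. The study's design text gives n = 6, and the 4 libraries listed per group are used.

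Lysosomes are acidic compartments in which proteases, glycosidases, sulfatases and lipases break down what reaches them by endocytosis and autophagy. The V-ATPase, a rotary pump built of a cytosolic V1 part and a membrane V0 part, moves the protons that keep them acidic. Tfeb and its relatives Tfe3 and Mitf bind an E-box element, the CLEAR box, in promoters of lysosomal genes. In fat cells a lysosomal lipase takes part in breaking down lipid droplets that autophagy delivers. MicroRNAs of the let-7 family lower messages that pair with their seed, and both mimics carry the same one. The mature sequences below (RefSeq, GRCm38.p6) are shown because the seed in capitals, bases 2 to 8, decides which messages can pair, and the substitutions from let-7d-5p to let-7e-5p, counted from 1 at the 5′ end, were A1U, U9G and C16U, all outside it.
mmu-let-7d-5p: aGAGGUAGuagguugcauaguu
mmu-let-7e-5p: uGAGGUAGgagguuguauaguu

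Sample identifiers came in 2 series, ID series 1 with replicates 1 and 2 of each group and ID series 2 with replicates 3 and 4. What distinguishes them is not in the labels. Principal component 1 (86.3% of the variance) split the series, so every fit carried a series term and values are given within each series. The libraries held 15071299 to 33396316 counts, and the smallest count of any of the 40 genes in a library was 130. Adipocyte markers summed to 4745 to 6792 CPM (counts scaled to the TMM-adjusted library size) in the libraries of ID series 2 and 19672 to 21579 CPM in those of ID series 1, with 9 of 10 markers in the table. Replicates are not labelled as coming from separate animals or dishes, and the p-values cover the spread among these libraries, technical or not. As a check that the mimics acted, the let-7 target Hmga2 was called lower (log2 fold change -0.84 for let-7d, -0.59 for let-7e), as was Dicer1 (-0.52 for let-7d, -0.45 for let-7e).

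With the let-7d mimic 10 of the 22 lysosomal enzymes rose, 1 fell and 11 were not called. Of the 11 proton pump genes edgeR called 0, with 5 at an unadjusted p under 0.05, as were 4674 of all 15754 genes. Among the other 7 genes Psap, Grn and Scarb2 rose. In all, 13 of the 40 rose and 1 fell, where 6.41% of all 15754 genes tested rose and 9.81% fell (edgeR quasi-likelihood test, Benjamini-Hochberg adjusted p under 0.05, 16.2% called in all). The median log2 fold change was 0.182 over the enzymes and 0.0253 over the pump genes, against -0.00215 over all genes tested, and the difference between enzymes and pump was not tested. Differences were small: the largest, that of Ctsl, was 0.55 on the log2 scale.

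**Figure D1:**
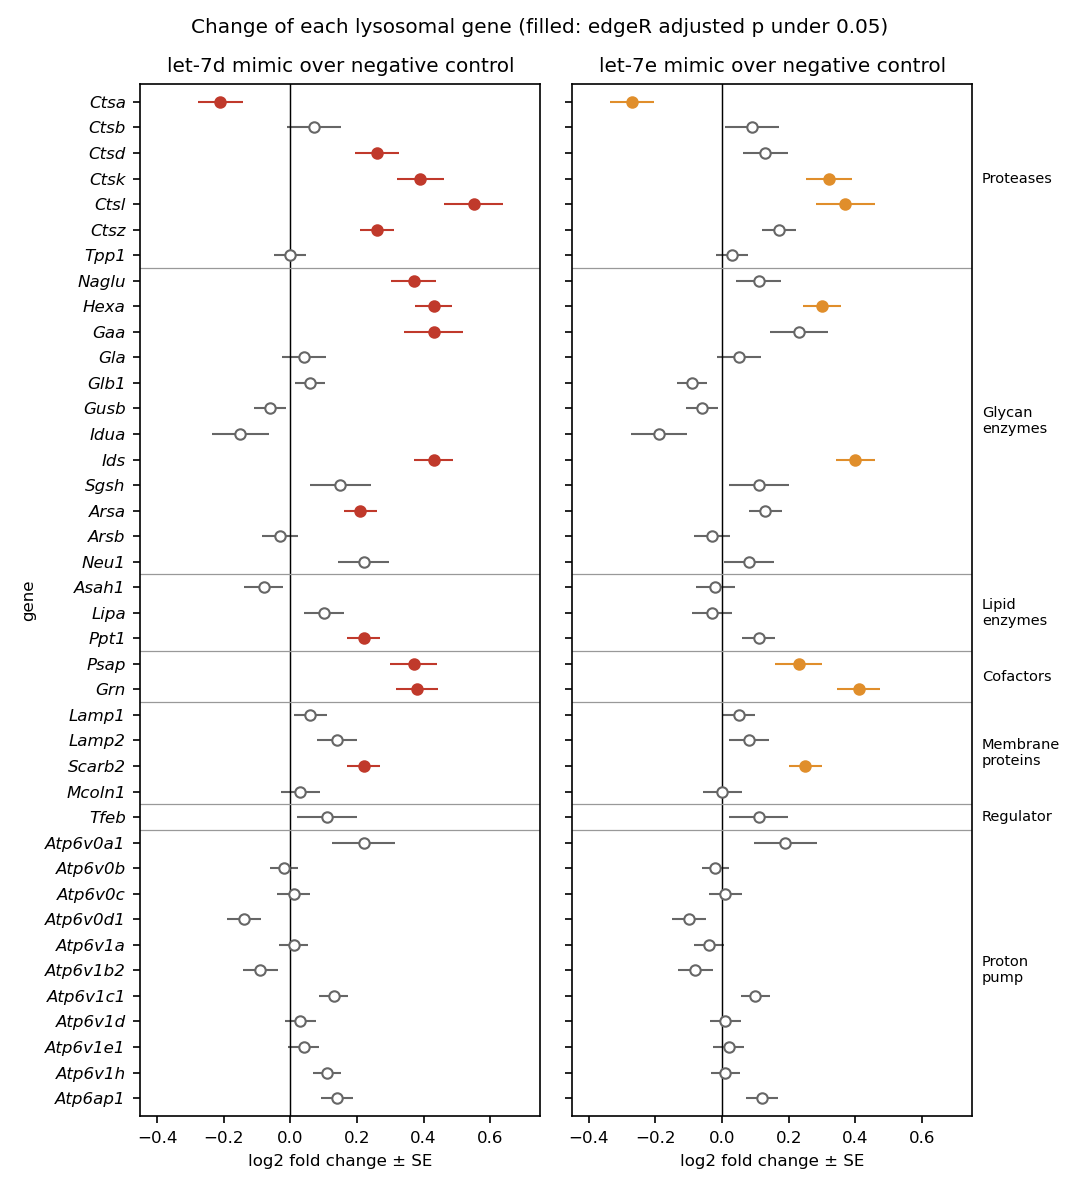
Log2 fold change with its standard error (x axis) of each of the 40 genes (rows, by class) with the let-7d mimic (left) and the let-7e mimic (right) over the negative control, 4 libraries a group. Filled points passed the edgeR test at an adjusted p under 0.05: 14 genes with let-7d and 8 with let-7e, among them 0 of the 11 pump genes at the bottom.

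The proteases led. Ctsl, a cysteine protease (chromosome 13, 64359337 to 64370890, minus strand, GRCm38), stood at 636 and 640.4 CPM in let-7d replicates 1 and 2 and at 1513 and 1274 in replicates 3 and 4. The let-7e replicates 1 to 4 held 692.9, 592, 987 and 1162 CPM, and the control replicates 1 to 4 held 482, 446, 960.1 and 836 CPM. Every library with either mimic lay above both controls of its own series. Ctsl rose by 0.55 ± 0.0875 (SE, adjusted p = 0.000537) with let-7d and by 0.37 ± 0.0874 (adjusted p = 0.0148) with let-7e, and the let-7e call was lost without let-7e replicate 1 (0.28, adjusted p = 0.065). A processed pseudogene overlaps its exons on the same strand, so its reads are uncertain in part. The same limit holds for Ctsd, whose exons overlap those of Gm49369 on the same strand, a gene that is not in the table.

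Ctsk, the collagen-cutting cathepsin best known from osteoclasts, had 64.6, 67.1, 226.5 and 229.8 CPM in let-7d replicates 1 to 4, 69.3, 70.5, 186 and 206 in the let-7e replicates and 59.6, 48.2, 163 and 163 in the controls. All 8 mimic libraries lay above the controls of their series, with log2 fold changes of 0.39 ± 0.0699 (adjusted p = 0.00121) for let-7d and 0.32 ± 0.0697 (adjusted p = 0.00945) for let-7e. The aspartic protease Ctsd stood at 1030, 1025, 563 and 563 CPM with let-7d, 1071, 961, 436 and 511 with let-7e and 919, 959, 436 and 420.0 in the controls. It rose with let-7d (0.26 ± 0.0665, adjusted p = 0.0132), and was called within ID series 2 (0.40) and not within ID series 1 (0.13). The carboxypeptidase Ctsz also rose with let-7d, by 0.26 ± 0.0508, with 215, 223, 285 and 272 CPM against 199.8, 188, 229 and 211 in the controls.

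Ctsa, the carboxypeptidase that also shields beta-galactosidase and neuraminidase in a complex, was the only one of the 40 genes that fell. It had 176, 171, 153 and 159 CPM in let-7d replicates 1 to 4, 179, 168, 135.0 and 153 in the let-7e replicates and 225, 231, 156 and 162 in the controls. The gap was wide in ID series 1, and in ID series 2 the let-7d and control libraries overlapped. The log2 fold change was -0.21 ± 0.067 (adjusted p = 0.0393) with let-7d and -0.27 ± 0.0669 (adjusted p = 0.0175) with let-7e. Within ID series 1 it was -0.39 with either mimic (adjusted p = 0.00275 and 0.0038), and within ID series 2 it was -0.03 with let-7d (adjusted p = 0.823) and -0.14 with let-7e (adjusted p = 0.346). The let-7d call was lost without any one library of ID series 1 (adjusted p 0.0503 to 0.138) and with only the libraries of the 2 groups (0.0777), and the let-7e call without control replicate 1 or 2 or let-7e replicate 2 or 3 (0.0542 to 0.0716). Exons of Ctsa overlap those of Pltp on the other strand, which differed by -0.24 ± 0.0857 with let-7d (adjusted p = 0.0674), and without a stated strand setting their reads cannot be told apart. The same holds for Ctsb, Ctsz, Hexa, Idua, Arsa, Grn and Lamp1, whose exons overlap those of another counted gene on the other strand, and for Glb1, which overlaps one on its own strand.

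Among the glycan enzymes 5 of 12 rose with let-7d and 2 with let-7e. Hexa, the alpha chain of the hexosaminidase that is lost in Tay-Sachs disease (chromosome 9, 59539540 to 59565109, plus strand), had 175, 172, 140.1 and 149 CPM in let-7d replicates 1 to 4, 167, 159, 120.0 and 137 in the let-7e replicates and 123, 123, 114 and 112 in the controls. Ids, the sulfatase of dermatan and heparan sulfate lost in Hunter syndrome (chromosome X, 70343069 to 70365084, minus strand), had 49.4, 46.4, 34.5 and 35.9 CPM with let-7d, 46.8, 48.6, 33.8 and 34.0 with let-7e and 31.8, 34.6, 28.1 and 27.4 in the controls. For both genes no mimic library overlapped the controls of its series. Hexa rose by 0.43 ± 0.0565 with let-7d and 0.30 ± 0.0564 with let-7e, and Ids by 0.43 ± 0.0581 and 0.40 ± 0.0577 (adjusted p from 0.000119 to 0.00353). Ids was also the only one of the 40 genes called in all 4 comparisons within a series, although its let-7e call in ID series 2 (0.29, adjusted p = 0.0458) was lost with RLE size factors, with DESeq2 and in 8 of the 12 fits that left out 1 library.

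Gaa, the acid glucosidase that degrades glycogen, had 181, 183, 106 and 119.5 CPM with let-7d, 179, 174, 75 and 99.8 with let-7e and 134, 158, 73.9 and 81.1 in the controls. Naglu, an enzyme of heparan sulfate breakdown, had 50.7, 52.1, 44.4 and 43.4 CPM with let-7d, 47.2, 44.1, 32.2 and 37.5 with let-7e and 45.1, 39.4, 34.4 and 29.9 in the controls. Both rose with let-7d, by 0.43 ± 0.0875 and 0.37 ± 0.0675, and neither passed with let-7e, where single libraries fell among the controls. The arylsulfatase Arsa, which works on sulfatide, rose by 0.21 ± 0.0496 with let-7d, with 65.5, 65.6, 44.9 and 47.7 CPM against 57.4, 58.1, 39.5 and 39.1 in the controls. The other 7 glycan enzymes (Gla, Glb1, Gusb, Idua, Sgsh, Arsb and Neu1) were not called with either mimic, with log2 fold changes from -0.15 (Idua) to 0.22 (Neu1) with let-7d and from -0.19 (Idua) to 0.11 (Sgsh) with let-7e. Of the lipid enzymes only Ppt1, which removes fatty acids from proteins, rose with let-7d (0.22 ± 0.0491, adjusted p = 0.00617), while the acid lipase Lipa stood at 0.10 ± 0.0599 and the acid ceramidase Asah1 at -0.08 ± 0.0592. Ppt1 exons overlap those of Cap1 on the other strand, which fell by 0.23 on the log2 scale.

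**Figure D2:**
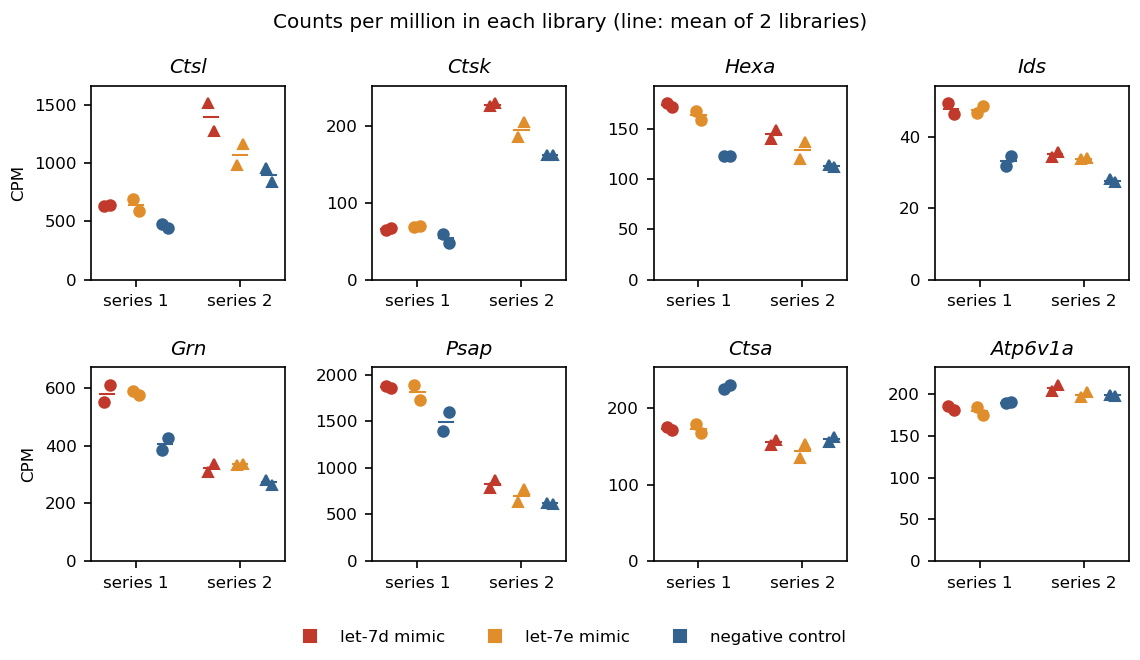
CPM (y axis, from 0) in each library for 8 genes, by ID series (x axis: circles for series 1, triangles for series 2), with the let-7d mimic, the let-7e mimic and the negative control from left to right and a line at the mean of 2 libraries. Hexa, Ids, Grn and Ctsl lie above their controls in both series, Ctsa lies below them in series 1, and the pump gene Atp6v1a, which was not called, stays between 175.0 and 211 CPM.

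The helpers of the enzymes rose with both mimics. Grn encodes progranulin, which is taken to lysosomes and cut into granulins, and it had 550.3, 612, 308 and 338 CPM in let-7d replicates 1 to 4, 588, 576, 333 and 337 in the let-7e replicates and 385, 426, 281 and 265 in the controls. Psap, the precursor of the saposins that assist sphingolipid enzymes, had 1883, 1860, 785 and 868.5 CPM with let-7d, 1892, 1726, 634 and 769.8 with let-7e and 1396, 1594, 624 and 611 in the controls. No mimic library of either gene fell among its controls, although let-7e replicate 3 came close for Psap. Grn rose by 0.38 ± 0.0641 with let-7d and 0.41 ± 0.064 with let-7e (adjusted p = 0.00086 and 0.000841), and Psap by 0.37 ± 0.0699 with let-7d (adjusted p = 0.00189). The let-7e value of Psap, 0.23 ± 0.0698 (adjusted p = 0.0483), was past the threshold by little and lost the call without control replicate 1, 3 or 4, let-7d replicate 1 or 2, or let-7e replicate 1, 2 or 4 (adjusted p 0.0606 to 0.175), with RLE size factors, with the replicate block and with only the libraries of the 2 groups.

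Of the membrane proteins, Scarb2 (LIMP-2), the carrier of glucocerebrosidase to lysosomes, rose with both. It had 423, 442, 749 and 765 CPM with let-7d, 459.8, 464, 741 and 738 with let-7e and 364, 365, 663 and 666 in the controls, and the fold changes were 0.22 ± 0.0488 and 0.25 ± 0.0488 (adjusted p = 0.00668 and 0.00465). The groups did not overlap within either series. The abundant glycoproteins Lamp1 and Lamp2, which line the membrane, and the cation channel Mcoln1 were not called: Lamp1 stood at 0.06 ± 0.0493 with let-7d and 0.05 ± 0.0493 with let-7e, and Mcoln1 at 0.03 ± 0.0588 and -0.00 ± 0.0583. Tfeb itself, the least abundant of the 40 at a mean of 1.67 CPM per kilobase of exon, stood at 0.11 with either mimic (SE 0.09 and 0.0886, adjusted p = 0.437 and 0.517).

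None of the 11 proton pump genes was called with let-7d or let-7e by the edgeR test, where 16.2% and 9.50% of all genes were. An unadjusted p under 0.05 was reached by 5 of the 11 with let-7d and 2 with let-7e, and by 4674 and 3610 of all 15754 genes. With let-7d, DESeq2 called Atp6v0d1 lower (-0.15, adjusted p = 0.0452) and limma-voom called Atp6ap1 higher (0.14, adjusted p = 0.0495), and both tools called 0 with let-7e. The filter on low counts added Atp6ap1 and Atp6v1c1 with let-7d. Log2 fold changes ran from -0.14 (Atp6v0d1) to 0.22 (Atp6v0a1) with let-7d and from -0.10 to 0.19, for the same genes, with let-7e. The catalytic V1 subunit Atp6v1a stood at 0.01 ± 0.0443 and -0.04 ± 0.0442, and Atp6v0b, the pump gene with the highest level per kilobase, at -0.02 ± 0.0416 and -0.02 ± 0.0415. Atp6v1a had 185, 181, 203 and 211 CPM in let-7d replicates 1 to 4, 184, 175.0, 196 and 203 in the let-7e replicates and 189, 190.0, 199 and 198 in the controls, and the groups overlapped.

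Enzymes and pump were also read in each library, as the mean over genes of log2 CPM relative to the controls of the same series. The 22 enzymes stood at 0.113, 0.128, 0.193 and 0.225 in let-7d replicates 1 to 4, at 0.144, 0.064, 0.00811 and 0.126 in let-7e replicates 1 to 4 and between -0.0229 and 0.0205 in the controls. The 11 pump genes stood at 0.0554, 0.0407, 0.000207 and 0.059 with let-7d, at 0.0444, 0.0168, -0.016 and 0.0332 with let-7e and between -0.0139 and 0.0128 in the controls. The difference of enzymes and pump averaged 0.126 ± 0.0642 (SD, n = 4) with let-7d, 0.0659 ± 0.0363 with let-7e and -0.000143 ± 0.0286 in the controls. All 4 let-7d libraries, from 0.0572 to 0.193, lay above the highest control at 0.0344. Of the let-7e libraries, replicate 3 at 0.0241 lay among the controls. The controls centre near 0 by construction, since each was read against the mean of its own pair, which also narrows their spread. The genes were chosen with earlier results known, so these positions are a description and were not tested.

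**Figure D3:**
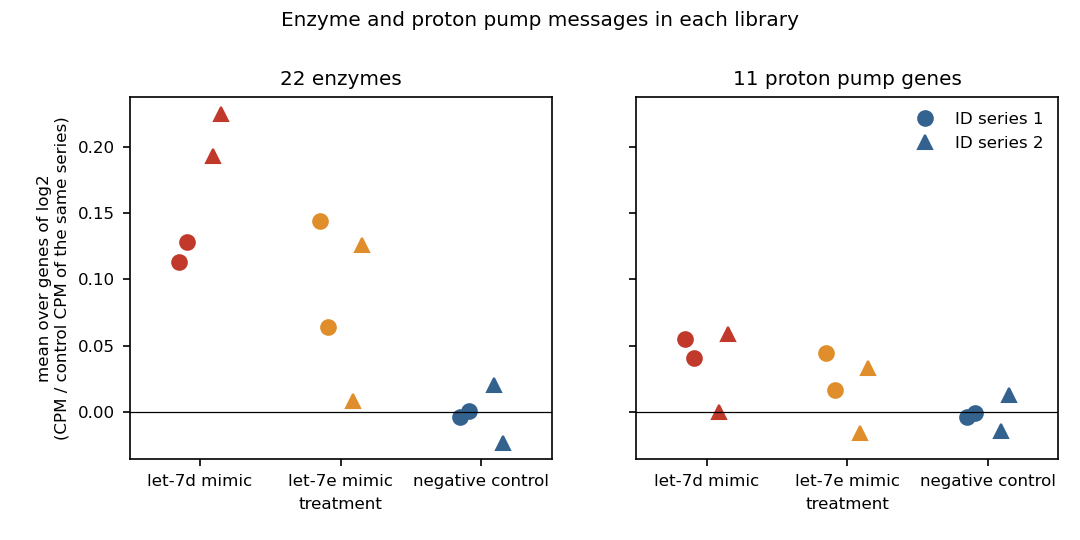
Mean over the 22 enzymes (left) and the 11 proton pump genes (right) of log2 CPM relative to the mean control of the same ID series (y axis), 1 point a library, by treatment (x axis). Enzyme values reach 0.225 with let-7d, and pump values stay between -0.016 and 0.059 in all libraries.

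Between the mimics 0 of the 40 genes were called, by edgeR, DESeq2 or limma-voom, where edgeR called 0.152% of all genes. An unadjusted edgeR p under 0.05 was reached by 7 of the 40, and by 1467 of all 15754 genes. Their log2 differences, let-7d over let-7e, ran from -0.06 to 0.25, and 31 of the 40 were above 0, as were 7610 of all 15754 genes. The largest was that of Naglu, 0.25 ± 0.0665 (adjusted p = 0.174), followed by Gaa at 0.21 ± 0.0868. These 2 comparisons with control share the control libraries, so each is given with its own values only. With let-7e 7 of the 40 rose and 1 fell, where 3.81% of all genes rose and 5.69% fell (9.50% called). The median over the enzymes was 0.0999 and over the pump genes 0.0109.

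Counted without a model, 18 of the 40 genes had all 4 let-7d libraries above both controls of their own series, where 10.4% of all genes did. These were 11 enzymes, 4 of the other genes and the pump genes Atp6ap1, Atp6v1c1 and Atp6v1h. The 1 gene with all let-7d libraries below was Atp6v0d1, where 13.4% of all genes lay below. With let-7e 11 of the 40 lay above, where 8.70% of all genes did, and Ctsa alone lay below, where 10.4% did.

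**Figure D4:**
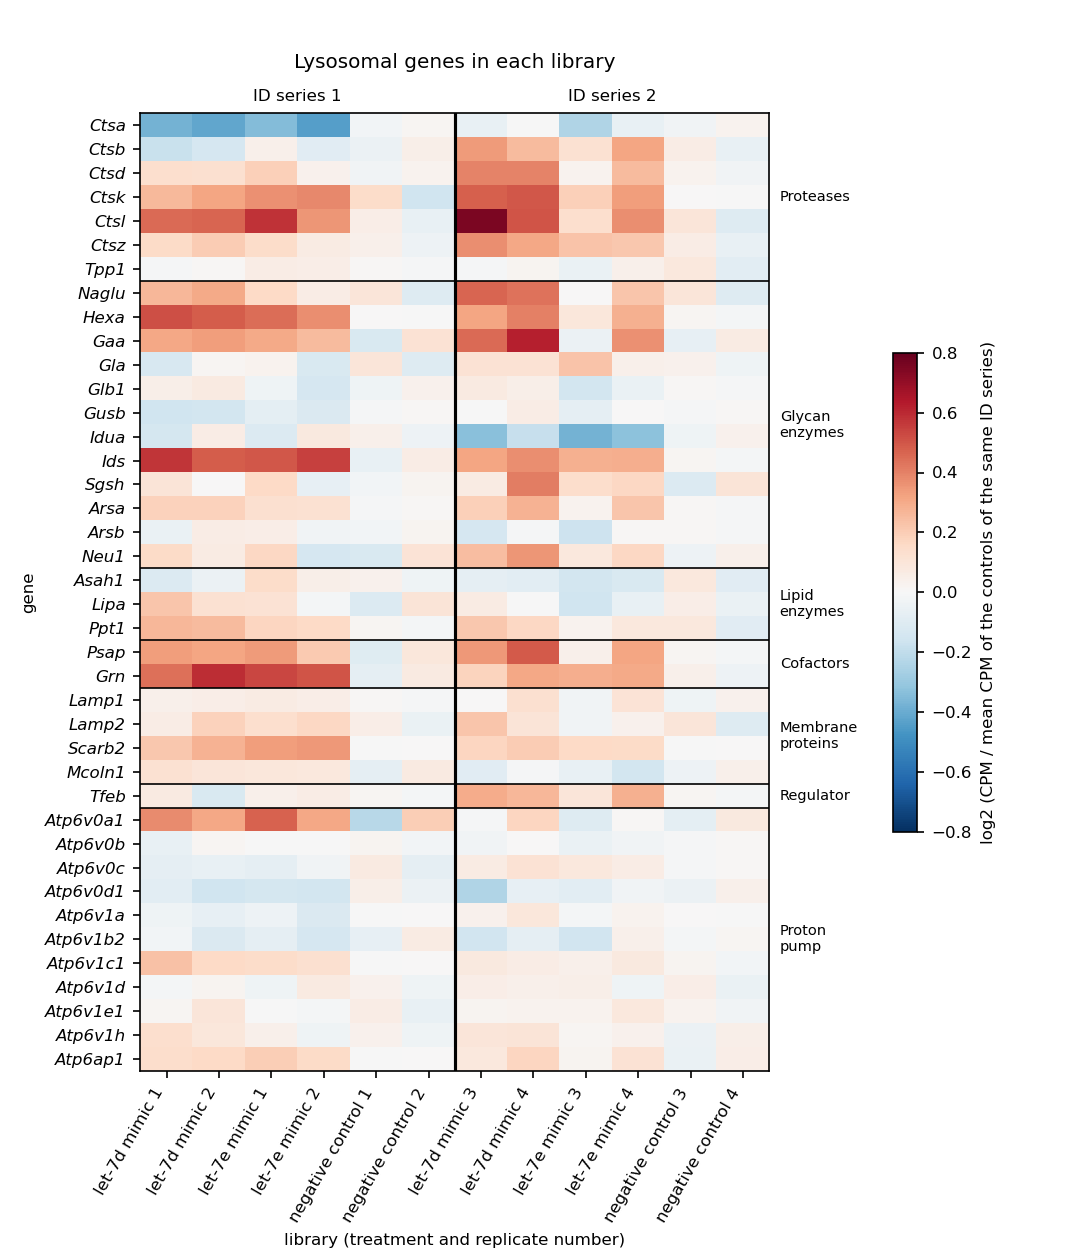
Log2 CPM of each of the 40 genes (rows, by class) in each of the 12 libraries (columns), relative to the mean control of the same ID series (colour: red above, blue below). Rows of Ctsl, Hexa, Ids, Grn and Scarb2 are red in all 8 mimic libraries, the Ctsa row is blue in the mimic libraries of series 1, and most pump rows are pale.

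Within ID series 1, let-7d raised 7 of the 40 genes and lowered Ctsa, where 10.9% of all genes were called (4.59% higher and 6.28% lower). The 7 were Ctsl, Hexa, Ids, Ppt1, Psap, Grn and Scarb2. Within ID series 2, 10 rose and 0 fell, where 8.56% of all genes were called (3.29% higher and 5.26% lower): Ctsb, Ctsd, Ctsk, Ctsl, Ctsz, Naglu, Hexa, Gaa, Ids and Psap. The pump had 0 edgeR calls in either series, with 3 and 0 genes at an unadjusted p under 0.05, as were 3993 and 3737 of all 15754 genes. DESeq2 called 0 in both, and limma-voom called 1 (Atp6v0a1) in ID series 1 and 0 in ID series 2. The enzyme median exceeded the pump median by 0.119 in ID series 1 and by 0.182 in ID series 2. These counts rest on 2 libraries against 2 and moved with single ones: in ID series 1 they became 4 without let-7d replicate 1 and 3 without let-7d replicate 2, and in ID series 2 leaving out control replicate 4 gave 3 and leaving out let-7d replicate 3 gave 6. The median gap in ID series 1 was 0.0213 without control replicate 1.

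With let-7e, 7 genes rose and Ctsa fell within ID series 1, where 7.12% of all genes were called (3.10% higher and 4.02% lower). Among the 7 was Atp6v0a1, the membrane subunit a of the pump, at 0.40 ± 0.11 (adjusted p = 0.0416), with 128 and 114 CPM in the let-7e libraries against 79.2 and 106 in the controls. The controls lay far apart, and the call was lost without control replicate 1, let-7d replicate 1 or 2 or any one let-7e library, and with robust estimation. Without let-7e replicate 1 or 2 the count in this series was 4. Within ID series 2 only Ids was called with let-7e, where 2.48% of all genes were called (0.914% higher and 1.56% lower). The enzyme median exceeded that of the pump by 0.083 in ID series 1 (0.0353 without control replicate 1, 0.151 without let-7e replicate 2) and by 0.119 in ID series 2 (0.0113 without let-7e replicate 4).

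The difference between the series in the response itself was tested by the interaction term. edgeR called 0 of the 40 genes for either mimic, where 0.241% of all genes were called for let-7d and 0.00635% for let-7e. An unadjusted p under 0.05 was reached by 4 and 7 of the 40, and by 2136 and 1398 of all 15754 genes. DESeq2 called 1 for let-7d and 0 for let-7e, and limma-voom called 0 for both. The 1 gene was Ctsb, a cysteine protease, at 0.45 ± 0.117 by edgeR (adjusted p = 0.106) and 0.47 by DESeq2 (adjusted p = 0.00986), series 2 minus series 1. It had 1470 and 1385 CPM in let-7d replicates 3 and 4, against 1208 and 1115 in the controls of ID series 2, and 1726 and 1772 CPM in let-7d replicates 1 and 2, against 1888 and 2009 in the controls of ID series 1. Its let-7d libraries lay above the controls in ID series 2 and below them in ID series 1. The next largest were Ctsa (0.36 ± 0.099, adjusted p = 0.127) and Tfeb (0.31 ± 0.172, adjusted p = 0.454).

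Between the series, 16 of the 40 genes were higher in ID series 2 and 19 lower, over all treatments, where 81.7% of all genes were called (41.7% higher and 40.0% lower). Of the enzymes 8 were higher and 13 lower, with a median log2 difference of -0.301, and of the pump genes 6 were higher and 2 lower, with a median of 0.132. The enzymes spread far: Ctsk (1.62), the alpha-galactosidase Gla (1.18) and Asah1 (1.04) were highest in ID series 2, and Ctsd (-1.03), the arylsulfatase Arsb (-0.91) and Gaa (-0.87) lowest. Among the pump genes Atp6v1d (0.77), Atp6v1h (0.61) and Atp6v1c1 (0.50), all of the V1 part, were highest. Atp6v0a1 (-1.55 ± 0.0788) stood apart from the other pump genes, of which Atp6v0c (-0.09) and Atp6v1b2 (0.01) came next. Lamp2 (1.13) was higher in ID series 2, and Psap (-1.27), Tfeb (-1.10) and Grn (-0.74) were lower. Adipocyte markers (9 of 9, median -2.14) and macrophage markers (14 of 14, median -3.18) were lower in ID series 2 as well. Preadipocyte and fibroblast markers went mostly the other way (6 of 8 higher, 2 lower, median 1.35), as did smooth muscle markers (4 of 5 higher, 1 lower, median 0.836). Of 5 endothelial markers 1 was higher and 3 lower, and of 5 mesothelial markers 2 were higher and 2 lower. The part of all these markers in the differences was not tested, and in bulk RNA fewer cells of a type and less RNA per cell cannot be told apart.

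**Figure D5:**
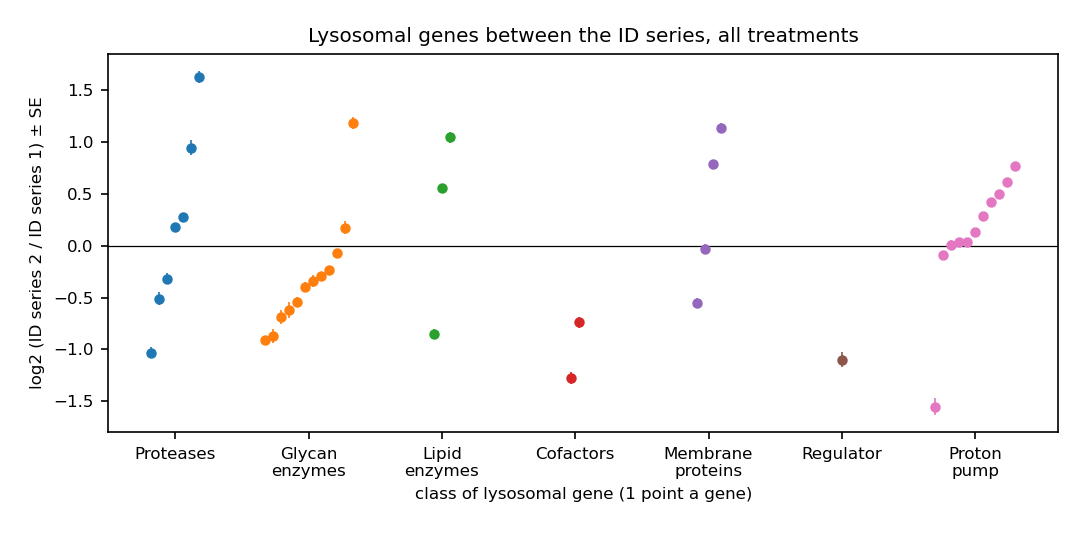
Log2 difference with its standard error of each gene, ID series 2 over ID series 1, over all treatments (y axis), by class (x axis), 1 point a gene and 6 libraries a series. Proteases run from -1.03 to 1.62, while 10 of the 11 pump genes lie between -0.09 and 0.77 and Atp6v0a1 lies at -1.55.

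Per kilobase of exon, Psap had the highest mean level of the 40 (444.7 CPM per kilobase over the 6 combinations of group and series), followed by Ctsd (315), Lamp1 (293) and Ctsb (263). The length counted every annotated exon of a gene, whether used in these cells or not, so these ranks depend on the annotation. Ctsl, for example, has an annotated 3′ UTR of 4761 bases. The order differed within ID series 2, where Lamp1 was highest with let-7e (291.0, against 255.8 for Psap) and in the controls (282.6, against 225.0 for Psap). Hexa (70.6), Asah1 (64.3) and Atp6v0b (56.1) led the glycan enzymes, the lipid enzymes and the pump. Pump genes kept to a narrow band, from 9.85 (Atp6v1h) to 56.1 CPM per kilobase, while enzymes ran from 2.9 (Sgsh) to 315. Neighbours such as Atp6v0b and Atp6v0d1 (53.7) changed places with the series: in control cells Atp6v0b stood at 62.3 CPM per kilobase in ID series 2 and 51.0 in ID series 1, and Atp6v0d1 at 56.8 in ID series 2 and 56.6 in ID series 1.

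Macrophages are rich in lysosomal messages, so their markers are given beside the enzymes. The list has 15 markers, of which 14 were in the table and Aif1 was not. In ID series 1 the 14 summed to 279.8 to 295 CPM in let-7d libraries, 213 to 324 in let-7e libraries and 309 to 318 in controls. There the sum was lower in let-7d libraries than in controls. Of the 14 markers 0 were called higher and 1 (Csf1r) lower with let-7d. Their median log2 fold change was -0.129, with 5 above 0. Over all genes 4.59% were called higher and 6.28% lower in that series. The part of these markers in the enzyme values of ID series 1 was not tested. In ID series 2 they summed to 133 CPM in let-7d replicate 3 and 52.5 in let-7d replicate 4, 37.8 to 64.5 in let-7e libraries and 20.8 to 30.5 in controls. Lyz2 made up most of the sum in the let-7d libraries, with 80.7 and 33.9 CPM in let-7d replicates 3 and 4 against 14.4 and 9.73 in the controls. Adgre1 stood at 4.12 and 0.722 CPM against 0.752 and 0.164, C1qa at 5.75 and 1.20 against 1.05 and 0.327, Csf1r at 10.8 and 8.71 against 7.40 and 7.61, Ptprc at 1.78 and 0.241 against 0.752 and 0.123, and Itgam was at 0 in control replicate 4. Of the 14 markers 6 were called higher with let-7d within ID series 2 (Lyz2, C1qa, C1qb, Mrc1, Cd163 and Tyrobp), with a median log2 fold change of 2.11. An unadjusted p under 0.05 was reached by 13 of the 14, and by 3737 of all 15754 genes. Over both series Lyz2 and Cd163 were called higher. Without let-7d replicate 3 all 14 genes called with let-7d over both series kept their call. Within ID series 2 leaving it out leaves 1 let-7d library. The median log2 fold change of the 40 genes there was then 0.123, against 0.109 with all libraries. Within ID series 2, where the sum was higher in both let-7d libraries, the part of these markers in the enzyme values was not tested. Smooth muscle markers (5 of 5 in the table) summed to 2860 to 2972 CPM with let-7d, 2619 to 2893 with let-7e and 3149 to 4191 in the controls of ID series 1. In ID series 2 they summed to 5068 to 5552 CPM with let-7d, 5373 to 5509 with let-7e and 6429 to 6739 in the controls. Over both series 3 of the 5 were called lower with let-7d and 2 with let-7e, and 0 higher with either. Over all genes 9.81% and 5.69% were called lower. The medians of the 5 were -0.271 with let-7d and -0.261 with let-7e. Preadipocyte and fibroblast markers (8 of 8) summed to 8065 to 8403 CPM with let-7d, 7938 to 8165 with let-7e and 7431 to 8001 in the controls of ID series 2. In ID series 1 they summed to 17201 to 17992 CPM with let-7d, 18863 to 20332 with let-7e and 16384 to 18927 in the controls. Col1a1 had the highest level of the 8, at 2543.1 CPM per kilobase in the controls of ID series 1 and 886.7 in those of ID series 2. It was lower in ID series 2 (-1.53), while 6 of the 8 were called higher there and 2 lower, with a median of 1.35. With let-7d 4 of these 8 were called higher and 1 lower over both series, with a median log2 fold change of 0.305. Endothelial markers (5 of 5) summed to 151.8 to 219.8 CPM with let-7d, 138.8 to 162.5 with let-7e and 143.2 to 144.8 in the controls of ID series 2, where Pecam1 was called higher with let-7d. In ID series 1 they summed to 223.3 to 268.6 CPM with let-7d, 245.9 to 258.5 with let-7e and 237.1 to 249.4 in the controls. In ID series 2 adipocyte markers summed to 5269 to 5983 CPM with let-7d, 5595 to 6379 with let-7e and 4745 to 6792 in controls. There 2 of the 9 in the table were called lower with let-7d and 0 higher, with a median of -0.195. Over all genes 5.26% were called lower and 3.29% higher there. Within ID series 1, 0 of the 9 were called with let-7d, with a median of -0.0191, where 10.9% of all genes were. The part of these other marker lists was not tested either. Lymphocyte markers (0 of 5) were not in the table.

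Further lysosomal genes were taken from lists, whose counts stand beside 6.41% higher and 9.81% lower over all genes with let-7d (16.2% called) and 3.81% higher and 5.69% lower with let-7e (9.50% called). Of 29 further hydrolases and cofactors 13 rose and 4 fell with let-7d, and 3 rose and 5 fell with let-7e, with medians of 0.173 and 0.0658. Scpep1, a serine carboxypeptidase, rose with both (0.39 ± 0.0522 and 0.32 ± 0.0521), as did the sphingomyelinase Smpd1 (0.17 and 0.21) and the acetyltransferase Hgsnat (0.25 and 0.18). Pla2g15, the lysosomal phospholipase (-0.45 ± 0.0548 and -0.45 ± 0.0545), and Hyal2, a hyaluronidase (-0.51 ± 0.0831 and -0.56 ± 0.0824), fell with both. Cathepsin S, Ctss, chosen after its values were seen, did not pass with let-7d over both series (0.82 ± 0.329, adjusted p = 0.103). It had 27.5 and 8.30 CPM in let-7d replicates 3 and 4 against 6.84 and 2.54 in the controls of ID series 2. In ID series 1 its mean was 57.5 CPM per kilobase of exon with let-7d and 49.5 in the controls. The source of these differences was not tested.

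Of 23 further membrane and transport proteins 3 rose and 3 fell with let-7d, and 4 rose and 1 fell with let-7e, beside the same shares over all genes. The calcium-permeable channel Tpcn1 fell with both (-0.49 ± 0.0783 and -0.55 ± 0.0776), the sialic acid exporter Slc17a5 rose with let-7d (0.37 ± 0.0698) and the nucleoside transporter Slc29a3 with let-7e (0.39 ± 0.0817). Tmem106b, a lysosomal membrane protein, rose with both (0.29 ± 0.058 and 0.19 ± 0.0579). Of 10 further pump subunits only Atp6v0d2, a variant of the V0 part found in osteoclasts and macrophages, rose with let-7d over both series (1.34 ± 0.295, adjusted p = 0.00565). The median over the 10 was 0.0918 with let-7d and 0.0696 with let-7e. Atp6v0d2 had 13.3, 13.5, 6.50 and 2.93 CPM in let-7d replicates 1 to 4 against 6.46, 7.37, 1.95 and 0.409 in the controls. With let-7e it stood at 0.72 ± 0.3 (adjusted p = 0.157). Tcirg1, a V0 subunit, was called higher within ID series 1 with let-7d (0.29 ± 0.0793, adjusted p = 0.0323) and let-7e (0.39 ± 0.0785, adjusted p = 0.00764), and stood at -0.08 with let-7d and 0.01 with let-7e within ID series 2.

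Genes that tag enzymes and carry them to lysosomes moved in both directions. Igf2r, the large mannose 6-phosphate receptor, fell with let-7d (-0.31 ± 0.0681) and let-7e (-0.33 ± 0.0679), and so did Gnptab, which makes the mannose 6-phosphate tag (-0.24 ± 0.0548 and -0.18 ± 0.0544). Sumf1, which activates sulfatases, rose with both (0.26 ± 0.0526 and 0.23 ± 0.0523). In all, 2 rose and 3 fell of 13 with let-7d, and 1 rose and 2 fell with let-7e, against 16.2% and 9.50% of all genes called. Among 17 genes of the Tfeb family and nutrient sensing, Mitf rose with let-7d (0.72 ± 0.0792, adjusted p = 2.88e-05) and let-7e (0.49 ± 0.0792, adjusted p = 0.00109), and the other 16 were not called. Mitf had 16.4, 17.5, 22.9 and 22.3 CPM in let-7d replicates 1 to 4, 15.2, 13.1, 18.5 and 20.4 in the let-7e replicates and 10.1, 10.9, 14.9 and 12.1 in the controls. It was called in both series with both mimics, unlike Tfeb, or Tfe3 at -0.05 ± 0.0545 and -0.02 ± 0.0541. Of 16 autophagy genes 1 rose and 2 fell with either mimic, where 16.2% of all genes were called with let-7d and 9.50% with let-7e: Wipi1 (-0.53 ± 0.0431 and -0.45 ± 0.0428) and Atg9a (-0.37 ± 0.0741 and -0.36 ± 0.0731) fell with both, Map1lc3b rose with let-7d (0.28 ± 0.056) and Nbr1 with let-7e (0.19 ± 0.0481).

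Each gene's longest annotated 3′ UTR (GENCODE, GRCm38.p6) was searched for matches to the let-7 seed. A match was CTACCTC, or its last 6 letters followed by A, on the message strand. They were present in 9 of the 40 genes (22.5%), against 2301 of 13547 tested genes (17%). Over all genes with a match 101 rose and 508 fell with let-7d, with a median of -0.0731. Of the 11246 genes without a match 836 rose and 973 fell, with a median of 0.0047. With let-7e 66 rose and 310 fell of those with a match, and 509 rose and 538 fell of those without. Of the 9, Ctsl and Gaa rose, 0 fell, and the median was 0.0388, and of the 31 without a match 11 rose and 1 fell, with a median of 0.128. The gene that fell, Ctsa, had no match in its 3′ UTR and 2 in its coding sequence. The further lists, which also hold genes of sorting, nutrient sensing and autophagy, had 22 genes with a match and 86 without. Of the 22, 0 rose and 8 fell with let-7d, Igf2r and Gnptab among them, and of the 86, 21 rose and 4 fell. With let-7e 1 rose and 6 fell of the 22, and 9 rose and 4 fell of the 86. Of the 40 genes, 1 rose and 0 fell with let-7e among the 9, and 6 rose and 1 fell among the 31. Sites from genes that rose, were not called or fell are shown together, with the letters that pair with the seed, and an A opposite base 1 where present, in capitals; each ends at the end of the site. A match is a description of these letters, not a site shown to be used.
Gaa, higher with let-7d, chromosome 11: atcagcaaacctgtCTACCTCA
Ctsl, higher with both mimics, chromosome 13: tagggctaataagctTACCTCA
Gla, not called, chromosome X: tgaaatacaagtctCTACCTCA
Idua, not called, chromosome 5: taaagtgtctttctCTACCTCA
Atp6v0a1, not called, chromosome 11: caagccctcgccggCTACCTCA
Igf2r, lower with both mimics, chromosome 17: acctgctccgtgccCTACCTCA
Gnptab, lower with both mimics, chromosome 10: catttgaaagtcacCTACCTCA

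Promoters were searched for TCACGTG, the core of the CLEAR box, on both strands, and for the E-box CACGTG, which every such core contains. The windows ran from 250 bases before to 50 after each start (RefSeq, GRCm38.p6), and 35 of the 40 genes had one. The core was present in 13 of the 35 (37.1%), against 763 of 11240 tested genes (6.79%), and the E-box in 14 (40%), against 11.5%. The element was first described in promoters of lysosomal genes, so this share is not independent of how such genes are chosen. Enzymes (8 of 20) and pump genes (3 of 8) held it in like shares. With let-7d 4 of the 13 genes with the core rose and 1 fell, with a median of 0.0571, while of the 22 without it 9 rose and 0 fell, with a median of 0.18. With let-7e 0 rose and 1 fell of the 13, and 7 rose and 0 fell of the 22. Over all genes tested 6.41% rose and 9.81% fell with let-7d, and 3.81% rose and 5.69% fell with let-7e. Calls among all genes with and without the core were not counted, and the difference between the 13 and the 22 was not tested. Windows of genes that rose, fell or were not called are shown with the core, on either strand, in capitals.
Ctsd, higher with let-7d, chr7:142387908-142387937, minus strand: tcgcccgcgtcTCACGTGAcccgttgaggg
Naglu, higher with let-7d, chr11:101070009-101070038, plus strand: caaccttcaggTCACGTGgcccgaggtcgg
Gaa, higher with let-7d, chr11:119267811-119267840, plus strand: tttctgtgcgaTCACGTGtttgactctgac
Ctsa, lower with both mimics, chr2:164833749-164833778, plus strand: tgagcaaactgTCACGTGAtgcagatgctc
Mcoln1, not called, chr8:3500462-3500491, plus strand: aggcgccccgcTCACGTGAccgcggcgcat
Atp6v0d1, not called, chr8:105566050-105566079, minus strand: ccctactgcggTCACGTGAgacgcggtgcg
Atp6v1a, not called, chr16:44139373-44139402, minus strand: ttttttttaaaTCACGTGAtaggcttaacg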

How the data were processed

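Total RNA of 12 libraries had been sequenced (NovaSeq, per the labels). The authors deposited raw counts by Ensembl ID, in whole numbers. The submitters' processing notes name STAR and GRCm38.p6. For the read counter and its strand setting, the sources used here give nothing. Genes of low CPM had been removed, per the name of the deposited table. Symbols came from GENCODE vM21. A second deposited table, named RPKM, was not used, because the gene length its values imply differed between libraries.

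All 15754 genes were tested with edgeR 4.0.16 (R 4.3.3): TMM scaling, filterByExpr (which removed none) and the quasi-likelihood test on all 12 libraries with terms for group and ID series (8 residual degrees of freedom). Values within a series and interactions came from a model with 6 combinations of group and series (6 residual degrees of freedom). P-values, two-sided, were adjusted by Benjamini-Hochberg over all genes, with 0.05 as the threshold of a call. CPM use the same scaling, and ± is SE for a log2 fold change. The procedure was tested on simulated data with 200 changed genes. Alternatives were RLE size factors, no filter, a filter at 1 CPM in 4 libraries, DESeq2 1.42.0, limma-voom 3.58.1, the replicate number as a block, no series term, only the groups compared, each library left out and, chosen after seeing the data, robust estimation. The pair of libraries of each group and series differed by more than counting noise (chi-square per degree of freedom 2.29 to 9.77).

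The 40 genes and all lists were chosen with earlier results of these data known. Named were the called genes of the 40, the most abundant of each class, Tfeb, Lamp1, Naglu and Mcoln1, the 3 highest and 3 lowest enzymes and pump genes between the series, and up to 3 called genes of each further list per mimic, given in part here. Neu1, Tcirg1, Sgsh, Idua, Lipa, Lamp2, Atp6v0d1, Atp6v1a, Atp6ap1, Ctsb, Ctss, Smpd1, Hgsnat and other genes outside this rule were chosen after their values were seen.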

Additional observations from a re-analysis of the deposited data

Results flagged for a closer look

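Each of the 40 genes was examined in each group of 4 libraries, 120 groups in all, for a highest or lowest library whose gap to the nearest other, divided by the range of the group, was above Dixon's 95% critical value. The critical value is set so that chance passes about 1 in 20 groups of like libraries. Each group here mixes 2 libraries of each ID series, which differ for most of the genes, so that rate does not apply to them. Of the 120 groups 2 passed. For Atp6v0c, a ring subunit of the pump, let-7d replicate 3 stood at 68.0 CPM, below the other let-7d libraries at 70.5, 70.9 and 70.6 CPM. For Atp6ap1, an accessory pump protein, control replicate 4 stood at 151.0 CPM, above the other controls at 138, 139 and 140.2 CPM.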

How the results depend on the processing

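Without the series term, edgeR called 0 of the 40 genes with let-7d and 0 with let-7e, where 7 and 0 of all 15754 genes were called. Within ID series 2 the let-7e count of 1 became 0 with RLE size factors, 2 with limma-voom and 2 with robust estimation, and DESeq2 called 1 gene for the difference of the let-7d response between the series, in place of 0. The other settings kept each count of calls within 1.5 times. With 1 library left out, the count ran from 13 to 15 for let-7d, 6 to 9 for let-7e, 0 to 0 between the mimics, 33 to 35 between the series and 0 to 0 for both interactions. Within ID series 1 it ran from 3 to 9 for let-7d and 4 to 8 for let-7e, and within ID series 2 from 3 to 14 and 0 to 3. The enzyme median less the pump median stayed above 0, at 0.118 to 0.189 for let-7d and 0.0421 (without let-7e replicate 1) to 0.119 for let-7e over both series, 0.0213 to 0.156 and 0.0353 to 0.151 within ID series 1, and 0.17 to 0.209 and 0.0113 to 0.134 within ID series 2. Values near 0 that were never called changed sign: Mcoln1 with let-7e (0.00 with limma-voom, 0.01 without the series term, -0.05 to 0.03 with 1 library left out). With 1 library left out so did Mcoln1 with let-7d (-0.02 to 0.07), Atp6v0b with let-7d (-0.03 to 0.00) and Asah1 with let-7e (-0.07 to 0.03). The cause of these changes was not tested.

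Whether the replicate numbers pair the libraries could not be settled, with 2 libraries in each group and series. Deviations from the mean of group and series correlated over genes at -0.0977 to 0.25, the highest for let-7d and control in ID series 2. With the replicate block 15 genes were called with let-7d, 7 with let-7e (Psap lost at an adjusted p of 0.0515) and 0 between the mimics. Counts of 2 libraries against 2 and the number of libraries limit what is called.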
